A study of Mus musculus with 12 samples.

Results

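The genes described here are 10 liver enzymes of nitrogen and glucose metabolism that are typical of periportal hepatocytes, taken by symbol from the 31253 gene symbols listed in every library. They comprise 4 urea cycle enzymes (Cps1, Ass1, Asl and Arg1), 3 gluconeogenic enzymes (Pck1, G6pc and Fbp1) and 3 enzymes of amino acid breakdown (Hal, Sds and Gls2). All 10 were found in all 12 libraries and all 10 passed the filter on low values, which kept 12120 symbols. The rule that lists them uses no measured value.

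The libraries were made from total liver RNA of male C57BL6 mice, with 3 libraries in each of 4 groups. WT_Ctrl were wild-type mice with no treatment, and WT_DEN were wild-type mice injected at 3 weeks of age with diethylnitrosamine (DEN), a chemical that causes liver tumours, at a dose of 50 µg/g. S302A_Ctrl and S302A_DEN were untreated and DEN-injected knock-in mice, whose allele of the RNA-binding protein CUGBP1 (gene Celf1) has alanine in place of the serine at the position in its name. Livers were taken 30 to 38 weeks after injection, at an age given as 33 to 41 weeks. The labels name no Cre or promoter, do not say whether tumour or surrounding tissue was taken, and give neither the feeding state nor the hour of collection. They also do not say that each library came from a separate animal, so the p-values cover the spread among these libraries alone, which may be technical.

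The urea cycle turns ammonia, released when amino acids are broken down, into urea for excretion. Cps1 makes carbamoyl phosphate from ammonia in the mitochondrion, Ass1 and Asl build and split argininosuccinate in the cytosol, and Arg1 releases urea from arginine. Gluconeogenesis makes glucose from lactate, glycerol and amino acid carbon: Pck1 makes phosphoenolpyruvate, Fbp1 removes a phosphate from fructose bisphosphate, and G6pc, in the endoplasmic reticulum, releases free glucose. Hal starts histidine breakdown, Sds turns serine into pyruvate, and Gls2 releases ammonia from glutamine. In the liver lobule these enzymes are most abundant near the portal vein, whereas glutamine synthetase (Glul) takes up remaining ammonia around the central vein. Hepatic Pck1 and G6pc transcripts are known to rise in fasting, under glucagon and glucocorticoids, and to fall after a meal, under insulin.

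On the mm10 assembly (GRCm38, GENCODE annotation) the urea cycle genes lie at chr1:67123026-67231259 (Cps1, plus strand), chr2:31470207-31520672 (Ass1, plus), chr5:130011258-130029247 (Asl, minus) and chr10:24915221-24927484 (Arg1, minus). The gluconeogenic genes lie at chr2:173153048-173159273 (Pck1, plus), chr11:101367561-101377903 (G6pc, plus) and chr13:62864753-62888282 (Fbp1, minus). The amino acid genes lie at chr10:93488768-93519304 (Hal, plus), chr5:120476526-120483932 (Sds, plus) and chr10:128194457-128210004 (Gls2, plus). All 10 are annotated as protein-coding.

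Upstream sequences of Pck1 and G6pc are shown because these genes are the textbook targets of fasting and feeding signals and, with Asl, varied most between the 12 libraries. The RefSeq promoter table (GRCm38.p6) held 5 of the 10 genes: Ass1, Pck1, G6pc, Fbp1 and Hal. Each line gives the 250 bases before the RefSeq start site on the plus strand, at chr2:173152823-173153072 for Pck1 and at chr11:101367466-101367715 for G6pc. Capitals mark TTACGT, read on either strand.
Pck1: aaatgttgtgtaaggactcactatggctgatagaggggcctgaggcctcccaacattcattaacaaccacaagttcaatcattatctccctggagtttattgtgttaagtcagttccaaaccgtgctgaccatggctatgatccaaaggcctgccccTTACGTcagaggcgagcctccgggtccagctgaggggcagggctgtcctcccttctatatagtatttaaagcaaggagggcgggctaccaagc
G6pc: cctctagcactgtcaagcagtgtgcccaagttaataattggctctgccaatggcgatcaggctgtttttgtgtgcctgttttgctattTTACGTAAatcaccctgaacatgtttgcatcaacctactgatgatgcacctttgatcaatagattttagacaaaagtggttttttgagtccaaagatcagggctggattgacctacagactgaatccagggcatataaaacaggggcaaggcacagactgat
TTACGT lies at -93 to -88 from the start in Pck1. In G6pc it lies at -162 to -157 on the plus strand and at -160 to -155 on the minus strand, the matches overlapping each other. This motif was picked after both sequences had been read, and 788 of 32851 windows of the same length hold it on either strand (2.4%). In Pck1 it overlaps TGACG, the core of the cAMP response element that glucagon signalling acts through, at -90 to -86 on the minus strand. At any position on either strand, 17.8% of windows hold TGACG. G6pc has TATAAA at -29 to -24, and 12.4% of windows hold TATAAA at any position on either strand. These are matches of letters, and binding was not measured.

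The values are TPM, a relative transcript measure that corrects for transcript length and library size, so the sequencing depth is unknown. No listed value is below 1, and 1 was read as a floor. Differences between groups are on the log2(TPM + 1) scale, given with standard errors (SE) from limma, a linear model fitted to all 12120 genes. A gene was called when its Benjamini-Hochberg adjusted p, over all tested genes, was under 0.05, and all tests were two-sided. In bulk tissue, fewer cells of a type and less RNA per cell cannot be told apart.

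The S302A_DEN replicate 3 library stood apart. It listed 13083 genes above the floor, against 10839 to 11653 in the other 11 libraries, and its 20 most abundant genes held 23.8% of all TPM, against 35.9% to 47.6%. Of all tested genes, 10539 of 12120 stood above both other S302A_DEN libraries, with a median log2 difference of 0.79. The enzymes described here went the other way: 9 of 10 lay below both, with a median of -0.88, and Asl lay above both. This library was the lowest of all 12 for 8 of the 10 genes. Its summed macrophage markers reached 683 TPM (99.4 to 263 elsewhere) and its stellate cell markers 176 TPM (23.4 to 49.4 elsewhere). Their part in the results was not tested, and most results that rest on this library are given with and without it.

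All libraries carried abundant transcripts of the 10 enzymes. Their sum held between 0.31% of all TPM (S302A_DEN replicate 3) and 0.772% (WT_DEN replicate 3). All 6 kidney proximal tubule markers stood at the floor in all 12 libraries, a check made because kidney also expresses several of these enzymes. By mean TPM over the 12 libraries the order was Ass1 (2027), Arg1 (1022), Pck1 (689), Fbp1 (573), Cps1 (479), Asl (346), Gls2 (206), G6pc (168), Sds (146) and Hal (113). The ranges over libraries overlap between every pair of neighbours in this order. The least variable gene was Cps1, with a coefficient of variation over all 12 libraries of 14.4%. The most variable were Asl (48.2%), G6pc (47%) and Pck1 (42.3%).

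**Figure D1:**
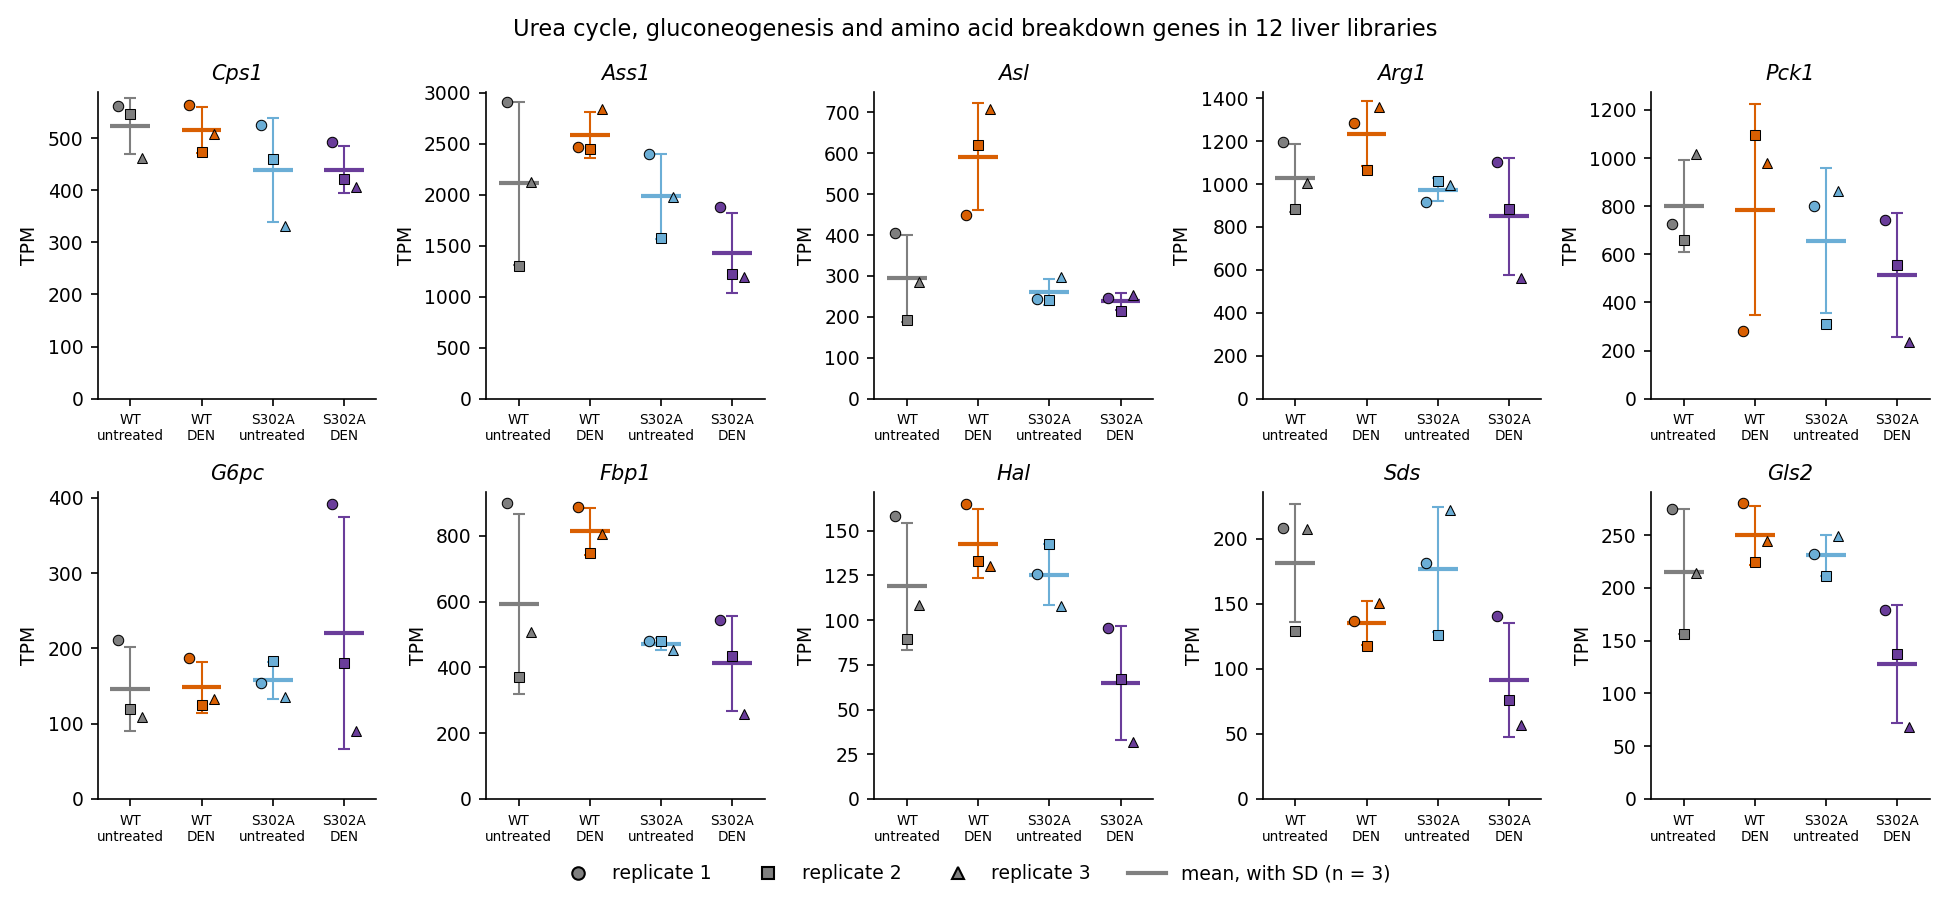
TPM (vertical axes, each from 0) of the 10 enzymes in 12 libraries by group, with replicate shown by marker shape and the mean and SD of 3 libraries as lines. Asl stood at 449 to 707 TPM in WT_DEN and at 193 to 405 TPM in the other 9 libraries. S302A_DEN replicate 3 was the lowest library for 8 of the 10 enzymes, among them Hal, Sds and Gls2.

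Asl differed most between the groups, and it was the only one of the 10 that stood higher without overlap in wild-type livers after DEN. Replicates 1 to 3 had 405, 193 and 286 TPM in WT_Ctrl and 449, 619 and 707 TPM in WT_DEN. In the knock-in they had 243, 242 and 297 TPM without DEN and 246, 215 and 253 TPM with it. Every WT_DEN library was above all 9 others, and the 2 knock-in groups overlapped. The mean was 2.01 times higher in WT_DEN than in WT_Ctrl, a log2 difference of 1.04 ± 0.26 (SE, limma, unadjusted p = 0.0016, adjusted p = 0.215). After DEN the knock-in mean was 238 TPM ± 20.1 (SD, n = 3), against 592 TPM ± 131 (SD, n = 3) in wild type. That log2 difference of -1.29 ± 0.26 had an adjusted p of 0.0624 in limma, just outside the threshold. The DEN-by-genotype interaction for Asl was -1.17 ± 0.37, with an adjusted p of 0.535 in limma. These differences share libraries: WT_DEN stands in all 3 of them.

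The Asl difference after DEN came under the threshold in 5 of 18 alternative analyses, and its limma adjusted p ranged from 0.0231 to 0.315 over them. It passed without S302A_DEN replicate 3 (-1.34, adjusted p = 0.0231 in limma). Leaving out WT_Ctrl replicate 1 or 2, neither of which is in the comparison, also brought it under (limma adjusted p = 0.0424 and 0.0369), as did a stricter filter (0.0465) and median-of-ratios scaling (0.0477). The estimate stayed between -1.48 and -1.15 in all 18.

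Ass1, the step before Asl, was the most abundant of the 10. Replicates 1 to 3 had 2907, 1305 and 2123 TPM in WT_Ctrl and 2466, 2443 and 2840.2 TPM in WT_DEN, against 2403, 1574 and 1974 TPM in S302A_Ctrl and 1879, 1218 and 1190.4 TPM in S302A_DEN. The 2 DEN groups did not overlap, with all knock-in libraries below all wild-type ones, whereas WT_Ctrl alone spanned almost the whole range of the other groups. After DEN the knock-in was lower by a log2 difference of -0.88 ± 0.30 (SE, limma adjusted p = 0.335), and by -0.77 without S302A_DEN replicate 3. The ratio of Ass1 to Asl was 7.13 ± 0.328 in WT_Ctrl and 4.48 ± 0.87 in WT_DEN (SD, n = 3), so the enzymes of these consecutive steps did not stand in a constant proportion.

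Arg1, the last step, varied less. WT_Ctrl had 1198, 884 and 1003 TPM, WT_DEN 1284, 1064 and 1357 TPM, S302A_Ctrl 914, 1016 and 993 TPM, and S302A_DEN 1105, 884 and 561 TPM. The groups overlapped in every comparison, with the single lowest value in S302A_DEN replicate 3. The log2 difference between genotypes after DEN was -0.59 ± 0.24 (SE, limma adjusted p = 0.525) and -0.31 without that library.

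Cps1, the entry step, was the steadiest. WT_Ctrl had 561, 546 and 462 TPM and WT_DEN 563, 474 and 509 TPM, and the knock-in had 525, 460.1 and 331 TPM without DEN and 492, 422 and 406 TPM with it. All groups overlapped. The 95% interval of the DEN difference in wild type ran from -0.45 to 0.41 on the log2 scale (SE 0.20, limma adjusted p = 0.997).

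Among the gluconeogenic enzymes, Fbp1 alone had DEN groups of the 2 genotypes that did not overlap. Fbp1 replicates 1 to 3 had 901, 372 and 507 TPM in WT_Ctrl and 888, 747 and 807 TPM in WT_DEN. They had 482, 481 and 452 TPM in S302A_Ctrl and 546, 434 and 257 TPM in S302A_DEN. The DEN groups were apart, with every knock-in library below every wild-type one, and WT_Ctrl spread across both because its replicate 1 was as high as any DEN library. The log2 difference between genotypes after DEN was -1.04 ± 0.32 (SE, limma adjusted p = 0.267), and -0.74 without S302A_DEN replicate 3 (limma adjusted p = 0.151).

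Pck1, which commits carbon to glucose synthesis, varied widely within groups. WT_Ctrl had 725, 661 and 1019 TPM, WT_DEN 283, 1096 and 977 TPM, S302A_Ctrl 802, 309 and 861 TPM, and S302A_DEN 744, 557 and 236 TPM. A single low library stood in each of 3 groups: WT_DEN replicate 1, S302A_Ctrl replicate 2 and S302A_DEN replicate 3. In the comparisons between 2 groups, the SE of each Pck1 difference was 0.56 on the log2 scale, the largest of the 10 genes. The adjusted p of Pck1 in limma was at least 0.709 in these comparisons.

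The summed level of 11 genes known to rise with feeding (among them Srebf1, Fasn, Pklr, Acly, Scd1 and Thrsp) varied as widely within groups. The sums were 3379, 663 and 846 TPM in WT_Ctrl, 5435, 2821 and 3572 TPM in WT_DEN, 1229.7, 2134 and 956 TPM in S302A_Ctrl, and 2496, 731 and 1024 TPM in S302A_DEN. Scd1 made most of the highest sum of each group, reaching 2341 TPM in WT_Ctrl, 3436 TPM in WT_DEN, 1384 TPM in S302A_Ctrl and 1511 TPM in S302A_DEN. The low Pck1 libraries of WT_DEN and S302A_Ctrl had the highest feeding sum of their groups, whereas that of S302A_DEN did not. In WT_Ctrl, replicate 1 had the highest feeding sum but not the lowest Pck1 (725 TPM, against 661 TPM in replicate 2). The part of feeding in these levels was not tested.

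G6pc, the last step of glucose release, had its highest and its lowest library in 1 group. WT_Ctrl had 211, 119 and 109 TPM, WT_DEN 187, 125 and 133 TPM, S302A_Ctrl 155, 184 and 135 TPM, and S302A_DEN 391, 181 and 90.0 TPM. All groups overlapped. The log2 difference between genotypes after DEN was 0.34 ± 0.43 (SE, limma adjusted p = 0.919), the only positive estimate of the 10 in that comparison. It became -0.20 without S302A_DEN replicate 1 and 0.86 without replicate 3, so single libraries set its direction. Pck1 and G6pc did not keep a constant proportion either: their ratio ranged from 1.51 to 8.75 in WT_DEN alone.

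The enzymes of amino acid breakdown had their lowest group means in DEN-treated knock-in livers, though none of the 3 was called. Ass1, Asl, Arg1, Pck1 and Fbp1 also had their lowest group mean there. Hal replicates 1 to 3 had 158, 89.4 and 109 TPM in WT_Ctrl and 165, 133 and 130.3 TPM in WT_DEN. In the knock-in they had 126, 142 and 108 TPM without DEN and 95.3, 66.8 and 31.7 TPM with it. All S302A_DEN libraries lay below all S302A_Ctrl and all WT_DEN libraries. The S302A_DEN mean was 64.6 TPM ± 31.8 (SD, n = 3), against 125 TPM ± 17.2 (SD, n = 3) in S302A_Ctrl, a log2 difference of -1.07 ± 0.34 (SE, limma adjusted p = 0.171). Against WT_DEN it was -1.26 ± 0.34 (SE, limma adjusted p = 0.186). Without replicate 3 these differences were -0.64 and -0.82, with limma adjusted p of 0.201 and 0.0698.

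Gls2, the glutaminase that feeds ammonia to Cps1, had the same arrangement of groups. WT_Ctrl had 275, 156 and 215 TPM, WT_DEN 280.1, 225 and 245 TPM, S302A_Ctrl 232, 211 and 249 TPM, and S302A_DEN 179, 137 and 67.9 TPM. Again every S302A_DEN library was below every library of S302A_Ctrl and of WT_DEN, though not of WT_Ctrl. The log2 difference was -0.95 ± 0.31 against S302A_Ctrl and -1.06 ± 0.31 against WT_DEN (SE, limma adjusted p = 0.183 and 0.237). Without replicate 3 these were -0.55 and -0.67, with limma adjusted p of 0.216 and 0.0949. The ratio of Gls2 to Glul, the pericentral glutamine synthetase, was 1.1 ± 0.104 in S302A_Ctrl and 0.456 ± 0.241 in S302A_DEN (SD, n = 3). Replicates 1 to 3 of S302A_DEN had 0.671, 0.500 and 0.195, so replicate 3 lowered that mean. In wild type the ratio was 0.78 ± 0.22 in WT_Ctrl and 0.793 ± 0.0338 in WT_DEN (SD, n = 3).

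Sds, which makes pyruvate from serine, was lower on average after DEN in both genotypes. WT_Ctrl had 208, 129 and 207 TPM and WT_DEN 137, 118 and 151 TPM, and the knock-in had 181, 126 and 222 TPM without DEN and 141, 76.0 and 57.1 TPM with it. Groups overlapped within each genotype, because replicate 2 of each untreated group was low. Averaged over genotypes, the DEN difference was -0.70 ± 0.23 on the log2 scale, with an adjusted p of 0.145 in limma. In the knock-in alone it was -1.01 ± 0.32 (SE, limma adjusted p = 0.175), and -0.73 without S302A_DEN replicate 3.

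**Figure D2:**
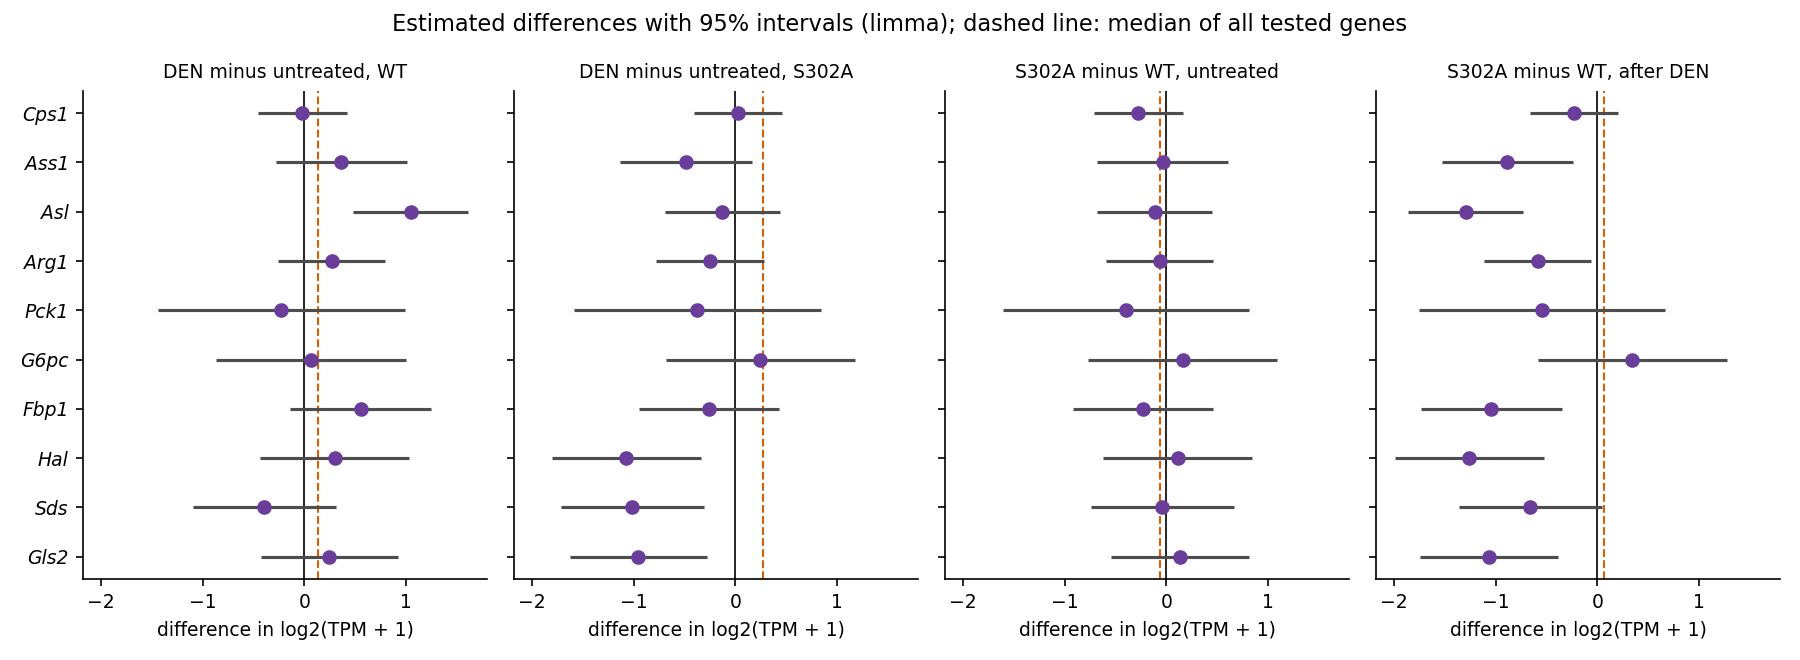
Differences in log2(TPM + 1) of the 10 enzymes (points) with 95% intervals from limma (bars) in 4 comparisons, and the median of all 12120 tested genes (dashed). In the comparison of genotypes after DEN, 9 of 10 points lie below 0, with Asl lowest at -1.29 and G6pc alone above at 0.34.

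None of the 10 enzymes was called in any of the 6 comparisons, so each comparison is described by its counts beside the same counts over all genes. In wild-type livers after DEN, 7 of 10 stood higher, where 70.3% of all genes did, with a median log2 difference of 0.26 against 0.13 over all genes. By limma 0 of 10 were called, where 0.132% of all genes were, and 1 of 10 (Asl) had an unadjusted p under 0.05 in the higher direction, where 6.89% of all genes did. One gene, Asl, had groups without overlap in that direction, and 21.7% of all genes had. The share of the 10 enzymes was thus near the background.

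In knock-in livers after DEN, 8 of 10 stood lower, while over all genes 20.5% did. The median log2 difference of the enzymes was -0.32, and that of all genes 0.27. By limma 0 of 10 were called, against 0.619% of all genes, and 3 of 10 (Hal, Sds and Gls2) had an unadjusted p under 0.05 in the lower direction, against 2.53%. Groups without overlap in that direction were found for 2 of 10 (Hal and Gls2), against 2.68% of all genes. Without S302A_DEN replicate 3, 5 of 10 stood lower, with a median of -0.08, and 5924 of 11883 genes did. With median-of-ratios scaling, which brings the median of all genes to 0.01, 10 of 10 stood lower, with a median of -0.63.

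Between the genotypes without DEN the 10 enzymes had a median log2 difference of -0.06, against -0.07 over all genes, and 7 of 10 stood lower, where 67.5% of all genes did. By limma 0 of 10 were called (0.0330% of all genes) and 0 of 10 had an unadjusted p under 0.05 (1.48% of all genes). The single estimates ran from -0.40 (Pck1) to 0.16 (G6pc), and every adjusted p was 1. Intervals were wide enough that differences of this size could not be resolved: that of Hal ran from -0.62 to 0.84.

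Between the genotypes after DEN, 9 of 10 stood lower in the knock-in, with a median log2 difference of -0.77 against 0.07 over all genes. Over all genes 39.7% stood lower. By limma 0 of 10 were called, against 0.380% of all genes. An unadjusted p under 0.05 in the lower direction was found for 6 of 10 (Ass1, Asl, Arg1, Fbp1, Hal and Gls2), against 4.90% of all genes. Groups did not overlap for 5 of 10 (the same genes without Arg1), against 6.19%. Without S302A_DEN replicate 3, 9 of 10 still stood lower, with a median of -0.52. The background then moved too: 9309 of 11883 genes stood lower, the median of all genes was -0.20, and 700 genes (5.89%) were called, among them Asl. In that setting 5 of 10 enzymes had an unadjusted p under 0.05 in the lower direction and 1 in the higher. Over all genes, 2818 of 11883 did in either direction, so the enzymes stood out less from the background than with all libraries.

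The interaction asks whether the DEN difference itself differed between the genotypes. By limma 0 of 10 enzymes were called, against 0.0413% of all genes, and 3 of 10 (Asl, Hal and Gls2) had an unadjusted p under 0.05 in the lower direction, against 2.83%. The Hal estimate was -1.37 ± 0.48 and the Gls2 estimate -1.20 ± 0.44 (SE), with limma adjusted p of 0.694 and 0.727. Without S302A_DEN replicate 3 these estimates were -0.93 and -0.80. In that setting 0 of 10 enzymes were called, and 3 of 10 had an unadjusted p under 0.05 in the lower direction. Over all genes, 1707 of 11883 did in either direction. The median of the enzymes went from -0.71 to -0.42, and that of all genes from 0.14 to -0.13. So a difference between the genotypes in their DEN response was not shown for any of the 10. For the DEN difference averaged over genotypes, 0 of 10 were called by limma, against 1.34% of all genes. There 5 stood higher and 5 lower, and Asl and Sds had an unadjusted p under 0.05, in opposite directions, against 19.4% of all genes in either direction.

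Of 8 further genes of ammonia disposal and its transport, Slc25a2 stood at the floor throughout and 7 were tested. In the DEN difference averaged over genotypes 1 rose (Nags), 1 fell (Slc7a2) and 5 did not pass, where 1.34% of all genes were called. Nags makes N-acetylglutamate, the activator that Cps1 needs. Its replicates 1 to 3 had 32.9, 28.9 and 28.7 TPM in WT_Ctrl and 54.2, 51.4 and 56.0 TPM in WT_DEN, and 25.4, 33.8 and 29.8 TPM in S302A_Ctrl and 52.1, 38.9 and 64.3 TPM in S302A_DEN. All 6 DEN libraries were above all 6 untreated ones, though the share of all genes with this arrangement was not counted. The log2 difference was 0.79 ± 0.14 (SE, limma adjusted p = 0.0292), where the median of all genes was 0.21.

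Slc7a2, a transporter of arginine and other cationic amino acids, went the other way. WT_Ctrl had 87.1, 50.0 and 102 TPM and WT_DEN 31.2, 32.9 and 38.7 TPM, and the knock-in had 90.4, 43.6 and 79.2 TPM without DEN and 27.3, 24.7 and 38.6 TPM with it. All 6 DEN libraries were below all 6 untreated ones, an arrangement whose share over all genes was not counted either. The log2 difference was -1.15 ± 0.22 (SE, limma adjusted p = 0.0361). Neither call was firm. Leaving out any of 8 libraries singly raised the limma adjusted p over the threshold: WT_Ctrl replicate 3, S302A_Ctrl replicates 1 and 3, all 3 WT_DEN libraries and S302A_DEN replicate 1 for both genes, with WT_Ctrl replicate 2 for Nags and replicate 1 for Slc7a2. The highest values reached were 0.0966 for Nags and 0.1 for Slc7a2, which also missed without the filter on low values (0.0529). Without S302A_DEN replicate 3 both passed, with limma adjusted p of 0.00862 and 0.0139.

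Car5a, the mitochondrial carbonic anhydrase that supplies bicarbonate to Cps1, had the arrangement of Asl. WT_Ctrl had 52.5, 34.1 and 42.8 TPM and WT_DEN 80.5, 84.4 and 92.3 TPM, and the knock-in had 43.9, 46.4 and 39.9 TPM without DEN and 49.3, 29.9 and 43.3 TPM with it. The 3 WT_DEN libraries were above all 9 others. The Car5a log2 difference between genotypes after DEN was -1.08 ± 0.22 (SE, limma adjusted p = 0.0624), and -1.14 without S302A_DEN replicate 3 (limma adjusted p = 0.0173). Otc, which joins carbamoyl phosphate to ornithine, had means of 313 and 332 TPM in wild type without and with DEN and of 297 and 227 TPM in the knock-in, and did not pass after DEN either (-0.55, limma adjusted p = 0.328). In that comparison all 7 tested neighbours stood lower in the knock-in and 0 were called, against 39.7% and 0.380% of all genes. An unadjusted p under 0.05 was found for 3 of the 7, against 4.90% of all genes in the lower direction. Leaving out S302A_DEN replicate 3, 2 of the 7 were called, both lower, where 5.89% of all genes were called.

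**Figure D3:**
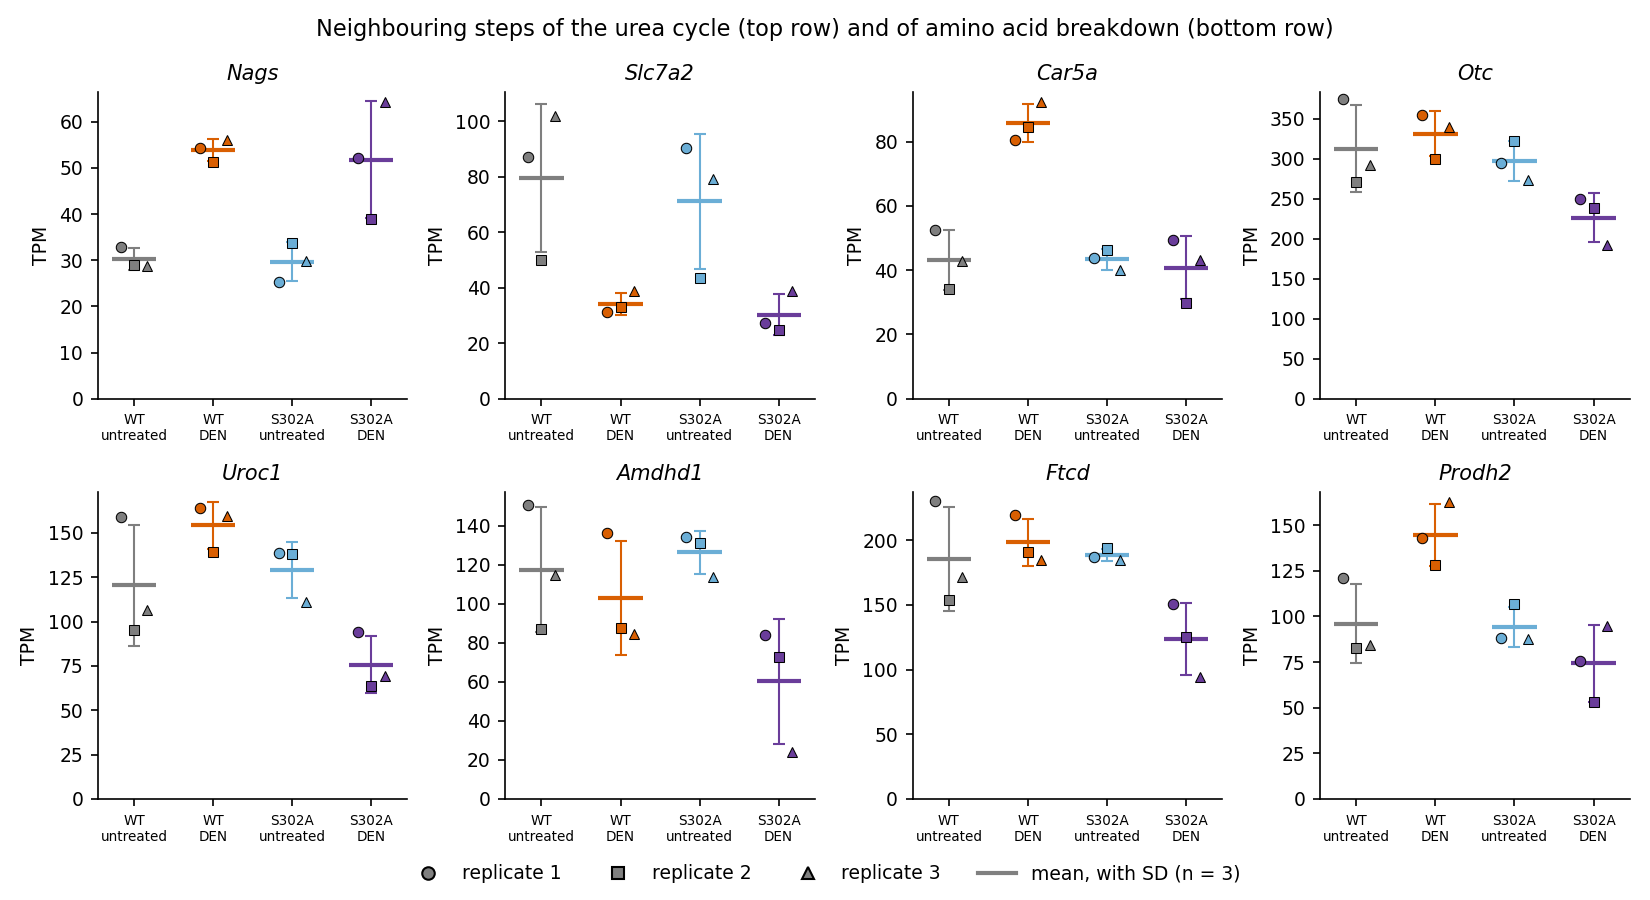
TPM (vertical axes, each from 0) of 8 neighbouring genes in 12 libraries by group, with replicate shown by marker shape and the mean and SD of 3 libraries as lines. Nags is higher and Slc7a2 lower in all 6 DEN libraries than in all 6 untreated ones, Car5a is highest in WT_DEN (80.5 to 92.3 TPM), and Uroc1, Amdhd1 and Ftcd are lowest on average in S302A_DEN.

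Of 13 other genes of gluconeogenesis and glucose transport, 0 were called by limma in any comparison with all libraries. Without S302A_DEN replicate 3, 4 of 13 were called between genotypes after DEN, all lower, where 5.89% of all genes were called. In wild-type livers after DEN 12 of 13 stood higher, with a median log2 difference of 0.38, against 70.3% and 0.13 over all genes. An unadjusted p under 0.05 was found for 3 of the 13 and for 1001 of all 12120 genes. Slc37a4, the transporter that brings glucose 6-phosphate to G6pc, had a mean of 64.6 TPM in WT_Ctrl and 117 TPM in WT_DEN (0.86 ± 0.20 (SE) on the log2 scale, limma adjusted p = 0.203). In the knock-in its means were 69.0 TPM without DEN and 75.9 TPM with it. Slc2a2, the glucose transporter of the hepatocyte membrane, had its lowest mean in S302A_DEN, at 56 TPM, against 96 TPM in S302A_Ctrl and 105 TPM in WT_DEN, and did not pass (limma adjusted p = 0.176 and 0.186).

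Among 23 other genes of amino acid breakdown, 0 were called by limma in any comparison with all libraries. After DEN 21 of 23 stood lower in the knock-in, with a median of -0.41, against 39.7% and 0.07 over all genes. An unadjusted p under 0.05 was found for 10 of the 23 and for 949 of all 12120 genes. In the DEN comparison within the knock-in, the 3 with the smallest p were the genes for the steps after Hal in histidine breakdown: Uroc1 (-0.77), Ftcd (-0.63) and Amdhd1 (-1.24 on the log2 scale). Their limma adjusted p were 0.138, 0.183 and 0.174. In S302A_DEN, Ftcd reached at most 150 TPM, below the lowest S302A_Ctrl library (184 TPM). Amdhd1 had 84.2, 72.5 and 24.0 TPM there, all below the lowest S302A_Ctrl library (114 TPM). Over all genes, 2.68% had groups without overlap in that direction. The size of the Amdhd1 estimate depended on S302A_DEN replicate 3. Without that library the estimates were -0.72 (Uroc1), -0.45 (Ftcd) and -0.68 (Amdhd1), with limma adjusted p of 0.129, 0.2 and 0.181. Uroc1, urocanase, had 139, 138 and 111 TPM in untreated and 94.1, 63.9 and 69.5 TPM in DEN-treated knock-in livers, without overlap, against 164, 139 and 159 TPM in WT_DEN. After DEN its difference between genotypes was -1.03 ± 0.22 (SE, limma adjusted p = 0.0803), and -0.98 without replicate 3 (limma adjusted p = 0.0334). This grouping with Hal was made after the values were seen. Prodh2, a proline dehydrogenase family enzyme, was lower in the knock-in after DEN by -0.98 ± 0.23 (SE, limma adjusted p = 0.11), and by -1.18 without replicate 3 (limma adjusted p = 0.0127). Without that library 6 of the 23 were called between genotypes after DEN, all lower, where 5.89% of all genes were called.

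Of 20 genes known to regulate these pathways, 0 were called by limma in any comparison with all libraries. With S302A_DEN replicate 3 left out, 1 of the 20 was called between genotypes after DEN, where 5.89% of all genes were called. This was Creb3l3, a liver transcription factor, lower in the knock-in (-0.50, limma adjusted p = 0.0438). In the averaged DEN difference 3 of the 20 had an unadjusted p under 0.05, where 19.4% of all genes did. Among these 3 were Hnf4a (0.50 ± 0.12 (SE), limma adjusted p = 0.0548) and Stat3 (0.64 ± 0.15 (SE), limma adjusted p = 0.0524), both higher.

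Of 15 periportal markers outside the 10 enzymes, 1 fell in the averaged DEN difference and 14 did not pass, where 1.34% of all genes were called. The one that fell was Hsd17b6, a steroid-metabolising enzyme, with means of 131 and 29.4 TPM in wild type without and with DEN and of 186 and 47.1 TPM in the knock-in (-2.08 ± 0.30 (SE) on the log2 scale, limma adjusted p = 0.0104). This call held in all 17 alternatives. Between genotypes after DEN the 15 had a median of -0.22 and 9 stood lower, and 0 were called, against 1 lower and 1 higher without S302A_DEN replicate 3. Over all genes and with all libraries, 39.7% stood lower in that comparison, the median was 0.07 and 0.380% were called. Of 19 pericentral markers 11 stood lower in that comparison, with a median of -0.02, and 1 was called. This was Slc1a2, a glutamate transporter, lower in the knock-in by a log2 difference of -1.46 ± 0.28 (SE, limma adjusted p = 0.0477), a call kept in 5 of 18 alternatives. Without DEN it already stood lower in the knock-in, with means of 13 and 26.4 TPM (-0.91 ± 0.28 (SE), unadjusted p = 0.00622, limma adjusted p = 1), and its interaction was -0.55 (limma, unadjusted p = 0.186). After DEN and without S302A_DEN replicate 3, 15 of the 19 stood lower, 5 were called lower and 1 higher. In that setting 5.89% of all genes were called, and the median of all genes was -0.20. The ranges of the summed pericentral level were 9134 to 10616 TPM in WT_DEN and 5938 to 11864 TPM in S302A_DEN, the highest of these being S302A_DEN replicate 3.

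Markers of bile duct cells were higher in the DEN-treated knock-in, and their part in the lower enzyme levels there was not tested. The sum of the 9 listed markers was 70.6 to 157 TPM in S302A_DEN, against 25.6 to 44.6 TPM in the other 9 libraries. Of the 9, 4 stood at the floor in all libraries and 3 were tested. Spp1, a secreted glycoprotein, made most of the sum and rose, with 55.3 to 122 TPM in S302A_DEN against 16.9 to 25.9 TPM in WT_DEN (1.8 on the log2 scale, limma adjusted p = 0.0390). The defining marker Krt19 stood at the floor in WT_Ctrl, WT_DEN and S302A_Ctrl and reached at most 1.93 TPM. The Spp1 rise against WT_DEN was kept in 6 of 18 alternatives, and that against S302A_Ctrl (2.20, limma adjusted p = 0.0125) in 16 of 18.

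The genes with the profile most like each enzyme were found among 5029 genes with a mean of at least 10 TPM, by the root mean square difference of centred log2(TPM + 1) values over the 12 libraries. For Asl these were AK212710 (0.17), Ahcy (0.19) and Car5a (0.22), against a spread of Asl itself of 0.58. For Hal they were Fabp1 (0.13), Ugt3a1 (0.18) and Cyp2d13 (0.19), against 0.62. Cyp2d13 (0.15) was also nearest to Gls2, followed by Igf1 (0.20) and Scnn1a (0.21), against 0.54. For Fbp1 the nearest was Apoa2 (0.17, against 0.52) and for Ass1 Clcn2 (0.18, against 0.44). For Arg1 it was Serpina1b (0.15, against 0.32) and for Cps1 Ddi2 (0.10, against 0.21), so these small distances go with small own spreads. The distances were largest for Pck1, G6pc and Sds: the nearest were Igfbp2 (0.40), Shroom1 (0.34) and AI317395 (0.29), against own spreads of 0.73, 0.53 and 0.56. None of the 10 enzymes' nearest genes was itself 1 of the 10, since the rule left these out.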

How the data were processed

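Total liver RNA was sequenced in 12 libraries. Per the submitters' processing notes, the authors used kallisto with mm10, and the deposited values are TPM per gene symbol. The kallisto version and annotation release are not given in the sources used here. Depth is unknown, since TPM keeps none. Values of 1 were read as a floor, which the notes do not mention.

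Genes above 1 TPM in at least 3 libraries were kept (12120). The log2(TPM + 1) values of all 4 groups entered 1 fit with limma 3.58.1 (R 4.3.3) and its mean-variance trend, leaving 8 residual degrees of freedom. It had no replicate block, since the labels do not say what a replicate number marks. The code was tested on simulated data. Fold changes on this scale understate those of low genes.

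The 10 enzymes, the 16 gene lists (199 symbols, 3 not found) and the tests were chosen with earlier results of these data known. Besides the 10 enzymes, the genes named were up to 3 per list and comparison with the smallest p, and 3 nearest profiles per enzyme. Not every gene so selected is reported here. Krt19, the histidine grouping and the TTACGT motif were chosen after values or sequences were seen. Alternatives were median-of-ratios scaling, a pseudocount of 0.1, no filter, a stricter filter (TPM at least 5), a contrast's libraries alone, a replicate block and each library left out.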

Additional observations from a re-analysis of the deposited data

How the results depend on the processing

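None of the 10 enzymes was called, and few results changed side. Over single enzymes and comparisons, 715 of 720 results with one library left out and 335 of 340 under other settings counted as unchanged. These kept their side of the threshold and their direction, or changed sign within a tolerance scaled to the SE of the comparison. That tolerance was 1 SD between replicates for comparisons of 2 groups, more for the interaction and less for the average. With no call to lose, a result could change side only by gaining one, so these counts do not show that the estimates were stable. Without S302A_DEN replicate 3, the enzymes lower after DEN in the knock-in went from 8 to 5 of 10, all counted as unchanged. Among the results with one library left out, the exceptions were Asl (3 calls gained) and G6pc without S302A_DEN replicate 1 (-0.29 for DEN in the knock-in and -0.20 for the genotypes after DEN). The number called was 0 throughout, except 1 (Asl, genotypes after DEN) with TPM at least 5, with median-of-ratios scaling and in 3 analyses with a library left out (range 0 to 1). Depth could not be assessed from TPM. Counts over all genes moved more. Without a filter they were 3 (DEN in wild type), 35 (DEN in knock-in), 0 (genotypes untreated), 28 (genotypes after DEN) and 86 (DEN averaged). With the libraries of a contrast alone they were 147, 17, 2 and 4 in the first 4, and this setting could not be run for the interaction or the average, which use all groups. With TPM at least 5, DEN in the knock-in gave 132. With median-of-ratios scaling the counts were 651 (DEN in knock-in), 210 (genotypes after DEN), 12 (interaction) and 708 (DEN averaged), and Cps1 moved to -0.29 and -0.25 and Arg1 to -0.24 in the DEN differences. With one library left out, counts ranged from 1 to 258 (DEN in wild type), 16 to 335 (DEN in knock-in), 0 to 12 (genotypes untreated), 6 to 700 (genotypes after DEN), 2 to 75 (interaction) and 17 to 1037 (DEN averaged). The cause was not tested.

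Over all tested genes, most samples that share a replicate number did not deviate together: 5 of 18 such pairs had a correlation over 0.1 (range -0.19 to 0.28). The highest was that of replicate 3 in WT_Ctrl and S302A_Ctrl. Among the 10 enzymes, replicate 2 was the lowest of its group for 8 in WT_Ctrl, 5 in S302A_Ctrl, 7 in WT_DEN and 1 in S302A_DEN. With a replicate block, 0 of the 10 enzymes were called in each comparison, and the counts over all genes were 5 for DEN in wild type and 87 for the averaged DEN difference.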

Other observations

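Igfbp1, an insulin-repressed gene of the fasting list, rose in the averaged DEN difference (2.71 ± 0.59 (SE) on the log2 scale, limma adjusted p = 0.0484). WT_Ctrl had 2.63, 2.68 and 10.1 TPM and WT_DEN 24.8, 24.6 and 32.6 TPM, and the knock-in had 4.73, 2.65 and 3.07 TPM without DEN and 14.6, 12 and 223 TPM with it. Without S302A_DEN replicate 3 the difference was 2.05 (limma adjusted p = 0.00638), and the call was kept in 7 of 17 alternatives, with adjusted p from 0.00638 to 0.123. The 11 genes of the feeding list all stood higher in wild-type livers after DEN, with a median log2 difference of 1.5, and all stood lower in the knock-in than in wild type after DEN, with a median of -1.09. Over all genes 70.3% stood higher in the first comparison (median 0.13) and 39.7% lower in the second (median 0.07). None of these 11 was called by limma in any comparison. In the same 2 comparisons 7 and 5 had an unadjusted p under 0.05, against 6.89% and 4.90% of all genes in those directions.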
